A study of Mus musculus with 6 samples.

Results

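The genes followed here, 10 in number, encode core components of basement membranes. They were taken by name from the raw read count table: the collagen IV genes Col4a1 and Col4a2, the nidogen genes Nid1 and Nid2, the laminin chain genes Lama4, Lama5, Lamb1, Lamb2 and Lamc1, and Hspg2, which encodes perlecan. All 10 members were found among the 22609 gene symbols of the table, and all 10 were tested. The RNA came from mandibular condyles of CD-1 mice at postnatal day 7, from which the articular zone (az), the surface layer of the condyle, and the mature zone (mz), the chondrocyte layer beneath it, were cut by laser capture microdissection. Sections of a zone were pooled into 1 sample, without a stated number of animals; the zones were told apart by cell morphology and the samples are called independent replicates. No treatment or genetic change is given for any sample. Values were used from 5 of the 6 samples, az replicates 2, 3 and 4 and mz replicates 2 and 3; mz replicate 4 mapped poorly according to its labels and was left out by the authors. p-values therefore measure the spread between 3 and 2 pooled samples.

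A basement membrane is a thin sheet of matrix in which a laminin network and a collagen IV network are joined by nidogens and by the heparan sulfate proteoglycan perlecan. Such sheets lie under epithelia and endothelia and around muscle fibers, Schwann cells and fat cells. Cartilage has few vessels and no continuous sheet of this kind, but perlecan, and some collagen IV, laminin and nidogen, are known from the pericellular matrix that surrounds each chondrocyte. In zone samples, fewer cells of a type and less RNA per cell cannot be told apart.

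The collagen IV pair is unusual in its layout. Col4a1 (chromosome 8, 11198423 to 11312826, minus strand) and Col4a2 (chromosome 8, 11312805 to 11449287, plus strand; GENCODE models on GRCm38, the assembly of mm10) are transcribed away from each other from starts that lie 21 bases apart in the RefSeq promoter windows (GRCm38.p6). Their first exons overlap over a few bases, 0.295% of the exon length of Col4a1. The stretch that holds both starts, chr8:11312801-11312830 on the plus strand, is shown with the bases from one start to the other in capitals, and it contains 1 GC box (GGGCGG, searched on both strands).
Col4a1 and Col4a2 starts: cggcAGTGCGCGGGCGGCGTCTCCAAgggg
Upstream sequence is shown for 2 members whose levels went opposite ways between the zones, Nid1 (chr13:13437352-13437550, plus strand) and Hspg2 (chr4:137468553-137468750, plus strand), each ending upstream of the first annotated base of the gene, with GC boxes in capitals.
Nid1: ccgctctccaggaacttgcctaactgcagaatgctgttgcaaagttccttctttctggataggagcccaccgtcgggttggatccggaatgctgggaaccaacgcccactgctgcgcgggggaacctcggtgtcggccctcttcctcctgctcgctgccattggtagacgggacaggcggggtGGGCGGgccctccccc
Hspg2: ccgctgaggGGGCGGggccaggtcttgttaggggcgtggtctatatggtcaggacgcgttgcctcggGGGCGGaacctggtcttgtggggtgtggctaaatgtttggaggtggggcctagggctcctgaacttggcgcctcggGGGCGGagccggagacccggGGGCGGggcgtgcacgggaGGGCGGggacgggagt
Hspg2 held 5 GC boxes in this stretch and Nid1 held 1. A GC box occurred in 35.7% of all 32851 RefSeq promoter windows of 300 bases, and in 6 of the 7 member windows in the table (Col4a1, Col4a2, Nid1, Lama5, Lamb1 and Hspg2, but not Lamb2). The Col4a1 and Col4a2 windows overlap, and the 1 GC box of the Col4a1 window lies in the shared part, so it counts for both genes. TATAAA, found in 13.6% of all windows, was in none of the 7; these are matches of letters and say nothing of binding. Nid2, Lama4 and Lamc1 have no window in the table.

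The members did not move as a group. Col4a1, Col4a2 and Nid1 were higher in the articular zone, Nid2 and Hspg2 were lower there, and none of the 5 laminin chain genes passed. edgeR's quasi-likelihood test with Benjamini-Hochberg adjustment, at a threshold of 0.05, was run on the 13119 genes that reached 10 counts in 2 or more libraries. It called 3 of the 10 members higher and 2 lower in the articular zone, against 3.00% of all genes tested, 1.14% higher and 1.85% lower. At an unadjusted p under 0.05 there were 7 of the 10 members, against 20.1% of all genes. The libraries of the zones did not overlap for 7 of the 10, against 38.7% of all genes tested. The median log2 fold change of the members, articular over mature zone, was 1.18, beside 0.07 over all genes tested. Levels are given as TMM-normalized CPM, counts scaled to a common library size, which compare libraries but not genes, or as the deposited FPKM, which is per length; log2 fold changes carry their standard error (SE).

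**Figure D1:**
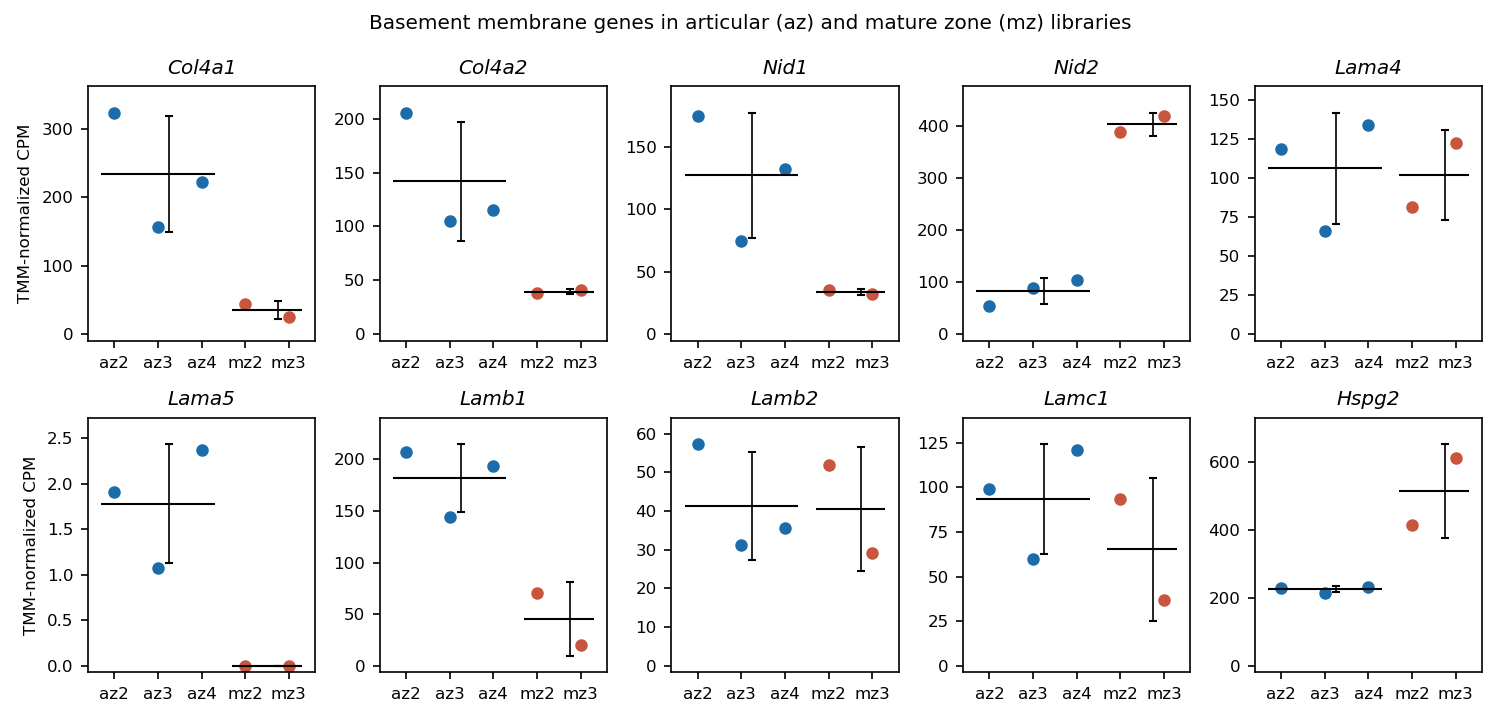
Each point is the level of a gene in 1 library in TMM-normalized CPM (articular zone az in blue, mature zone mz in red, with the replicate number), and lines and bars are the mean and SD of 3 and 2 libraries. Col4a1, Col4a2, Nid1, Lama5 and Lamb1 lie higher in every articular zone library than in both mature zone libraries, Nid2 and Hspg2 lie lower, and Lama4, Lamb2 and Lamc1 overlap.

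Both chains of collagen IV, the network-forming collagen of basement membranes, were higher in the articular zone. Col4a1 was at 324, 157 and 222 CPM in az replicates 2, 3 and 4 and at 44.2 and 25.7 CPM in mz replicates 2 and 3. Even its lowest articular zone library was 3.55 times its highest mature zone library. This was a log2 fold change of 2.74 (SE 0.39, edgeR adjusted p = 0.0151), or 6.69-fold, from 234 ± 84.0 CPM (SD, n = 3) in the articular and 34.9 ± 13.1 CPM (SD, n = 2) in the mature zone. Col4a2 was at 206, 105 and 115 CPM in the articular zone and at 38.0 and 40.9 CPM in the mature zone, a narrow range for the latter. Its log2 fold change was 1.85 (SE 0.35, edgeR adjusted p = 0.0349), or 3.60-fold. The highest library for both chains was az replicate 2 and the lowest of the articular zone was az replicate 3.

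The calls of this pair changed with the libraries used, while their direction did not. A fit without a mature zone library leaves that zone with 1 library, which is then assumed to vary like the articular zone libraries; this holds for each such fit given here. Without az replicate 2, 3 or 4 or mz replicate 2 or 3, in this order, the edgeR adjusted p was 0.0523, 0.0468, 0.0872, 0.00878 and 0.0543 for Col4a1 and 0.0951, 0.0744, 0.122, 0.0469 and 0.0955 for Col4a2. Over these fits the log2 fold change stayed between 2.40 and 3.19 for Col4a1 and between 1.48 and 2.04 for Col4a2.

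The ratio of the chains within a library does not depend on scaling between libraries. Per length, Col4a1 was at 0.924, 0.951 and 1.17 times Col4a2 in az replicates 2, 3 and 4 and at 0.671 and 0.377 times in mz replicates 2 and 3. The chains were thus near parity in FPKM in every articular zone library, and Col4a1 was the lower chain in both mature zone libraries. The mean log2 ratio was higher by 1.01 in the articular zone (exact permutation test over the 5 libraries, two-sided, p = 0.1, the smallest p that 3 against 2 allows; adjusted p = 0.167 over the 5 ratios tested). The parity itself depends on the length used: the FPKM of Col4a1 corresponded to a gene model 2.36 times as long as its longest GENCODE transcript (6615 bases), and that of Col4a2 to 1.49 times (6450 bases). With counts per base of those transcripts the ratios were 1.53, 1.46 and 1.88 in the articular and 1.14 and 0.612 in the mature zone, so the difference between zones kept its direction and the near parity was lost. By this measure Col4a1 was the higher chain in mz replicate 2, so the order of the chains there depends on the length used. That alternative was chosen after the data were seen.

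The nidogens, which link laminin to collagen IV and to perlecan, moved in opposite directions. Nid1 (chromosome 13, 13437551 to 13512269, plus strand) was at 175, 74.6 and 132 CPM in az replicates 2, 3 and 4 and at 35.3 and 32.4 CPM in the mature zone. All of its articular zone libraries were above both mature zone libraries, by at least 2.11 times. Nid1 had a log2 fold change of 1.91 (SE 0.39, edgeR adjusted p = 0.0427), or 3.76-fold. Nid2 (chromosome 14, 19751265 to 19811787, plus strand) was at 54.9, 88.8 and 103 CPM in the articular zone and at 387 and 419 CPM in the mature zone. Here the mature zone libraries were the high ones and lay close together, the lower of them 3.75 times the highest articular zone library. The log2 fold change of Nid2 was -2.29 (SE 0.28, edgeR adjusted p = 0.0104), or 4.89-fold higher in the mature zone, from 82.4 ± 24.9 CPM (SD, n = 3) against 403 ± 22.3 CPM (SD, n = 2). Of the 10 members, Nid2 had the smallest p.

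Without az replicate 2, 3 or 4 or mz replicate 2 or 3, the edgeR adjusted p was 0.0216, 0.0537, 0.0670, 0.00704 and 0.0339 for Nid2 and 0.144, 0.0478, 0.172, 0.0477 and 0.123 for Nid1. The opposite signs held in all of these fits, with log2 fold changes of -2.48 to -2.07 for Nid2 and 1.61 to 2.19 for Nid1. Of the exon length of Nid2, 8.45% is shared with Rtraf on the opposite strand, and whether reads were counted by strand is not stated. Rtraf, listed under its older symbol 2700060E02Rik, was at 53.5, 78.4 and 69.5 CPM in the articular and 103 and 140 CPM in the mature zone (log2 fold change -0.85, SE 0.27, edgeR adjusted p = 0.139). Like Nid2, Rtraf was lower in every articular zone library than in both mature zone libraries. The part of Rtraf reads in the Nid2 count was not tested.

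The balance of the nidogens shifted within libraries as well. Nid2 made up 35.9%, 66.5% and 57.3% of the summed nidogen FPKM in az replicates 2, 3 and 4 and 94.9% and 95.9% in mz replicates 2 and 3. In the articular zone neither nidogen dominated in all libraries, whereas in the mature zone nearly all nidogen RNA per length was Nid2. As a ratio, Nid2 was at 0.559, 1.98 and 1.34 times Nid1 in the articular zone and at 18.6 and 23.4 times in the mature zone. The mean log2 ratio of Nid2 to Nid1 differed by -4.19, articular minus mature zone (exact permutation test, two-sided, p = 0.1, the smallest possible; adjusted p = 0.167). Per base of the longest transcript the ratios were 0.393, 1.49 and 0.978 in the articular and 13.7 and 16.2 in the mature zone, so the order of the nidogens in az replicate 4 depends on the length used. In FPKM the difference was -3.68 without az replicate 2, in which Nid1 was highest and Nid2 lowest. The summed FPKM of both nidogens was 16.4 ± 2.99 (SD, n = 3) in the articular and 38.9 ± 1.39 (SD, n = 2) in the mature zone.

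**Figure D2:**
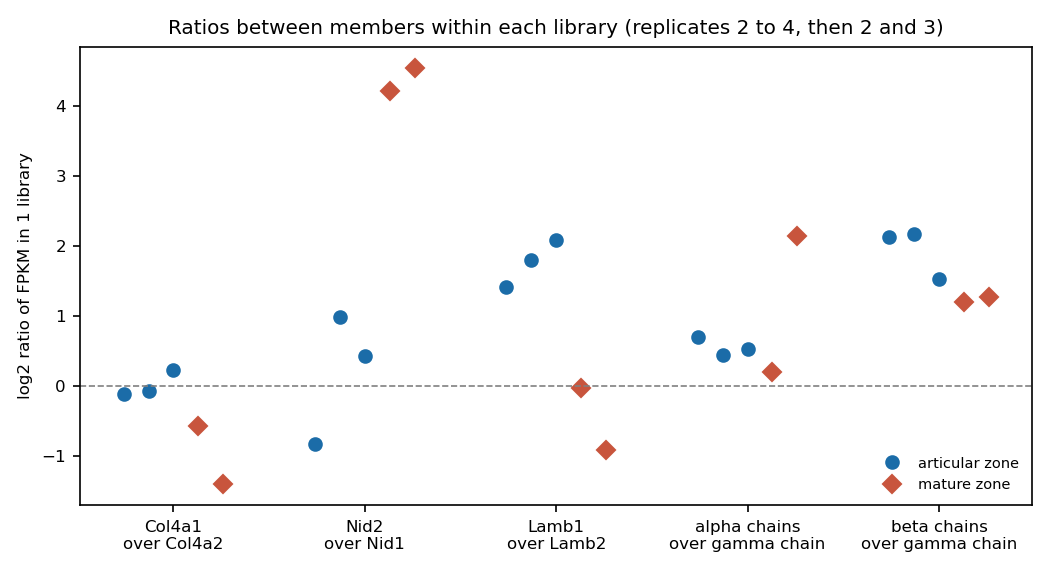
Each point is the log2 ratio of the FPKM of 2 members, or of summed laminin chains, in 1 library (blue circles, articular zone replicates 2, 3 and 4; red diamonds, mature zone replicates 2 and 3), with the dashed line at equal FPKM. The ratio of Nid2 to Nid1 was between -0.84 and 0.99 in the articular zone and at 4.22 and 4.55 in the mature zone, and the ratio of alpha chains to the gamma chain overlapped between zones.

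Perlecan RNA was higher in the mature zone. Hspg2 (chromosome 4, 137468769 to 137570630, plus strand) encodes the core protein of perlecan, a large heparan sulfate proteoglycan that binds growth factors and, in cartilage, lies in the pericellular matrix. It was at 228, 215 and 231 CPM in az replicates 2, 3 and 4, the tightest group of all members, and at 415 and 611 CPM in the mature zone. The zones did not overlap, and mz replicate 3 was well above mz replicate 2. Hspg2 had a log2 fold change of -1.19 (SE 0.21, edgeR adjusted p = 0.0257), or 2.28-fold higher in the mature zone. The edgeR adjusted p was 0.10, 0.11 and 0.14 without az replicate 2, 3 and 4, 0.00700 without mz replicate 2 and 0.0863 without mz replicate 3, with log2 fold changes from -1.44 to -0.89. In FPKM, Hspg2 was at 11.5 ± 0.889 (SD, n = 3) in the articular and 23.3 ± 3.76 (SD, n = 2) in the mature zone.

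Laminins are trimers of an alpha, a beta and a gamma chain, and none of the 5 chain genes passed the test. Lamb1 (chromosome 12, 31265234 to 31329644, plus strand), which encodes the beta chain of most laminins of early tissues and vessels, came nearest. It was at 207, 144 and 193 CPM in az replicates 2, 3 and 4 and at 70.2 and 20.0 CPM in mz replicates 2 and 3. The zones did not overlap, but the mature zone libraries were far apart, mz replicate 2 above mz replicate 3. The log2 fold change was 2.01 (SE 0.50, edgeR adjusted p = 0.0792). It was 3.19 without mz replicate 2 (edgeR adjusted p = 0.00478), 3.09 without both replicate 2 libraries (edgeR adjusted p = 7.00e-04) and 1.37 without mz replicate 3 (edgeR adjusted p = 0.0828). DESeq2 called Lamb1 higher in the articular zone (adjusted p = 6.42e-04), where it called 14.6% of all genes tested, and so did limma-voom (adjusted p = 0.0212).

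Lamb2 (chromosome 9, 108479736 to 108490530, plus strand), the beta chain known from the neuromuscular junction and the kidney glomerulus, overlapped between zones. It was at 57.3, 31.2 and 35.5 CPM in the articular and 51.8 and 29.2 CPM in the mature zone, with the replicate 2 library high in each zone (log2 fold change 0.03, SE 0.41, edgeR adjusted p = 0.980). The direction turned without az replicate 2 (-0.28) and without mz replicate 3 (-0.33). Within a library, Lamb1 was at 2.65, 3.48 and 4.24 times Lamb2 in FPKM in the articular zone and at 0.974 and 0.526 times in the mature zone. Lamb1 was thus the more abundant beta chain per length in every articular zone library and not in the mature zone. The mean log2 ratio was higher by 2.25 in the articular zone (exact permutation test, two-sided, p = 0.1, the smallest possible; adjusted p = 0.167). Per base of the longest transcript, Lamb1 was at 1.32 times Lamb2 in mz replicate 2 and at 0.666 times in mz replicate 3, against 3.52 to 5.30 times in the articular zone, so the order of the chains in mz replicate 2 depends on the length used.

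Lama4 (chromosome 10, 38965515 to 39110188, plus strand), the alpha chain of endothelial, muscle and fat cell laminins, was at 119, 65.9 and 134 CPM in the articular and 81.3 and 122 CPM in the mature zone. The zones overlapped, and az replicate 3 was the lowest library. The log2 fold change was 0.06 (SE 0.35, edgeR adjusted p = 0.952), and it turned to -0.02, -0.14 and -0.20 without az replicate 2, az replicate 4 and mz replicate 2. Lama4 supplied most of the alpha chain RNA per length in both zones: 76.1%, 84.6% and 86.6% of the summed FPKM of Lama1 to Lama5 in az replicates 2, 3 and 4, and 78.7% and 90.7% in the mature zone. Lama2, the alpha chain of the muscle fiber basement membrane, took 6.66% to 16.9% in the articular zone and 13% and 6.35% in mz replicates 2 and 3, and the zones overlapped.

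Lama5 (chromosome 2, 180176373 to 180225859, minus strand), an alpha chain of epithelial and mature vascular basement membranes, was close to the limit of detection. It was read 33, 17 and 47 times in az replicates 2, 3 and 4 and had 0 counts in both mature zone libraries. Against 3 counts over both mature zone libraries, which is the limit that a count of 0 allows, it was at least 17.8-fold higher in the articular zone, a bound that covers counting error only. It did not pass the test (edgeR adjusted p = 0.172), and in FPKM it was at the lowest value of the table, 0.1, in az replicate 3 and both mature zone libraries, so no ratio of Lama4 to Lama5 was formed. DESeq2 called it (adjusted p = 0.0341).

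Lamc1 (chromosome 1, 153218922 to 153332786, minus strand), the gamma chain shared by most laminins and the one that binds nidogen, was at 99.0, 60.1 and 121 CPM in the articular and 93.8 and 36.9 CPM in the mature zone. The zones overlapped, and mz replicate 3 was the lowest library. Lamc1 had a log2 fold change of 0.52 (SE 0.45, edgeR adjusted p = 0.597). It was 1.34 without mz replicate 2 and -0.01 without mz replicate 3. Summed over chains, Lamb1 and Lamb2 were at 4.36, 4.49 and 2.89 times the gamma chain in FPKM in az replicates 2, 3 and 4 and at 2.30 and 2.40 times in the mature zone (exact permutation test on the log2 ratio, two-sided, p = 0.2; adjusted p = 0.25). The alpha chains, Lama4 and Lama5, were at 1.62, 1.35 and 1.44 times the gamma chain in the articular zone and at 1.14 and 4.41 times in the mature zone, the last value from mz replicate 3, where Lamc1 was low (p = 0.6 by the same exact test). Without that library the difference turned from -0.61 to 0.36 on the log2 scale.

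Summed per length, the members overlapped between the zones, with a different make-up. The FPKM of all 10 added up to 116, 77.2 and 111 in az replicates 2, 3 and 4 and to 96.9 and 85.3 in the mature zone. Collagen IV took 30.4 ± 9.52 FPKM (SD, n = 3) in the articular and 5.72 ± 1.25 FPKM (SD, n = 2) in the mature zone. The laminin chains took 43.2 ± 10.6 and 23.2 ± 9.33 FPKM, with 31.0 as the lowest articular and 29.8 as the highest mature zone library. Nidogens and perlecan together made up the larger part in the mature zone, through Nid2 at 37.1 ± 1.05 and Hspg2 at 23.3 ± 3.76 FPKM (SD, n = 2).

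The other basement membrane genes were looked up from a list of 25 further components, of which 24 were in the count table and 15 had enough counts to be tested. Of these 15, edgeR called 2 higher in the articular zone and none lower, against 1.14% and 1.85% of all genes tested. At an unadjusted p under 0.05 there were 4 higher and 1 lower, against 20.1% of all genes in either direction. DESeq2 called 4 higher and none lower, where it called 14.6% of all genes tested. Hmcn1, which encodes the very large matrix protein hemicentin 1 (chromosome 1, 150562524 to 150993435), was at 408, 285 and 361 CPM in az replicates 2, 3 and 4 and at 152 and 89.7 CPM in the mature zone. All articular zone libraries were above both mature zone libraries (log2 fold change 1.54, SE 0.29, edgeR adjusted p = 0.0318). Frem1, a component of the Fraser complex that anchors epithelial basement membranes (chromosome 4, 82897920 to 83052339), was read 476, 129 and 341 times in az replicates 2, 3 and 4 and not once in either mature zone library, at least 174-fold higher by the same bound as for Lama5 (edgeR adjusted p = 0.0178). Neither gene passed in edgeR without az replicate 2, 3 or 4 (adjusted p from 0.0774 to 0.149 for Hmcn1 and from 0.0552 to 0.113 for Frem1), and Hmcn1 did not pass without mz replicate 3 (adjusted p = 0.0862). The number called higher was 8 of 15 without mz replicate 2, where 6.57% of all genes tested were called higher, and 8 of 13 without both replicate 2 libraries, where 8.49% were.

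Among the tested genes of this list, 13 of 15 had a log2 fold change above 0, with a median of 1.40, beside 0.07 over all genes tested. Npnt, which encodes nephronectin, a ligand of integrins, was at 131, 107 and 113 CPM in the articular and 44.0 and 16.7 CPM in the mature zone and missed the threshold (log2 fold change 1.95, SE 0.42, edgeR adjusted p = 0.0545). Agrn, which encodes agrin, another heparan sulfate proteoglycan, had a log2 fold change of -0.68 (SE 0.28, edgeR adjusted p = 0.227). The collagen IV chains with restricted distribution were scarce: Col4a3, Col4a5 and Col4a6 had too few counts to test, and Col4a4 was at 2.83, 2.72 and 2.21 CPM in the articular and 1.45 and 0.499 CPM in the mature zone.

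**Figure D3:**
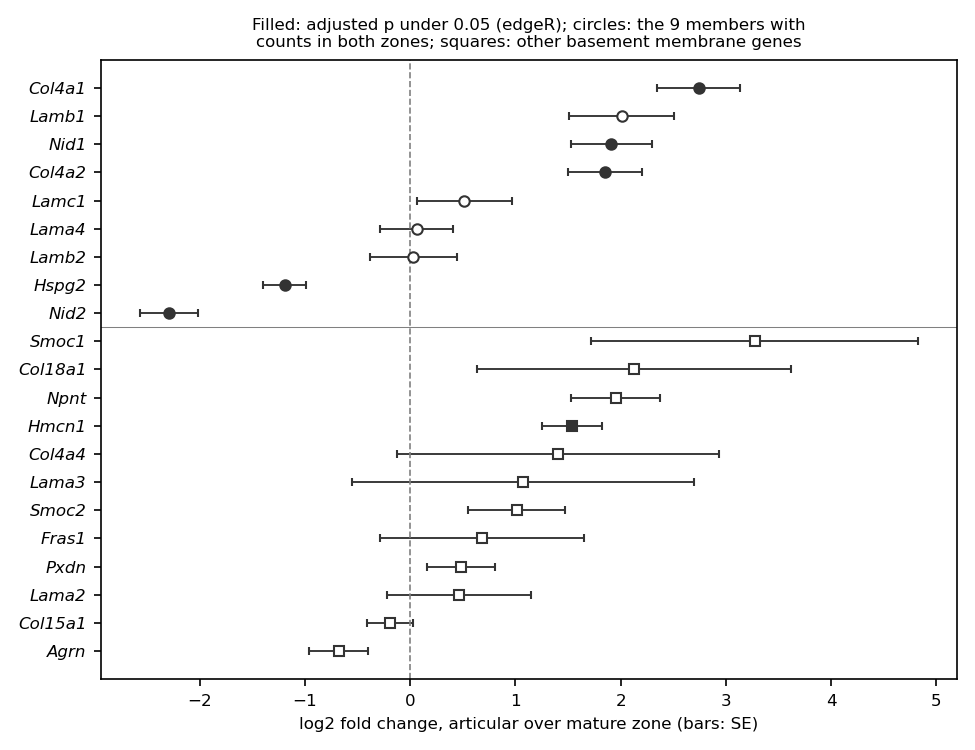
Points are log2 fold changes of articular over mature zone with bars of 1 SE, circles for the 9 members with counts in both zones and squares for the tested genes of the list of other components with counts in the mature zone; filled symbols passed edgeR at an adjusted p under 0.05. Col4a1, Nid1 and Col4a2 lie between 1.85 and 2.74, Hspg2 at -1.19 and Nid2 at -2.29.

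Receptors of basement membranes showed no called difference. Of 10 genes, 9 were tested and none was called in edgeR or DESeq2 (none higher and 1 lower at an unadjusted p under 0.05 in edgeR). Over all genes tested, 3.00% were called in edgeR, 14.6% in DESeq2 and 20.1% had such an unadjusted p. No call in so short a list therefore does not set the receptors apart. Itgb1, the beta subunit shared by the integrins that bind laminin and collagen, was at 632, 728 and 748 CPM in the articular and 780 and 602 CPM in the mature zone, and the zones overlapped (log2 fold change 0.02, SE 0.19, edgeR adjusted p = 0.965). Dag1, which encodes dystroglycan, a laminin and perlecan receptor, was at 48.9, 38.4 and 39.5 CPM in the articular and 71.0 and 71.4 CPM in the mature zone (log2 fold change -0.75, SE 0.28, edgeR adjusted p = 0.191). It was the only receptor gene of the list with an unadjusted p under 0.05.

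Markers of cells that carry a basement membrane were read beside the members. The 14 endothelial markers summed to 248, 20.3 and 149 CPM in az replicates 2, 3 and 4 and to 38.7 and 13.8 CPM in mz replicates 2 and 3. The articular zone libraries held the highest sums, but az replicate 3 lay between the mature zone libraries. The sum of mz replicate 2 was mostly Esam (15.1 CPM) and Pecam1 (8.94 CPM). Single markers did not all follow the sum: 6 of the 14, Cdh5, Flt1, Tek, Emcn, Egfl7 and Robo4, were higher in every articular zone library, az replicate 3 included, than in both mature zone libraries. Cdh5, for example, was at 23.1, 5.06 and 13.3 CPM in az replicates 2, 3 and 4 and at 3.15 and 0 CPM in the mature zone. All 6 were among the 11 markers tested. Over all genes tested, the zones did not overlap for 38.7%, counting both directions. Between az replicate 3 and mz replicate 2, the endothelial sum was 20.3 against 38.7 CPM, while the 6 markers named above went the other way. In the same 2 libraries, Col4a1 was at 157 against 44.2 CPM, Col4a2 at 105 against 38.0 CPM and Nid1 at 74.6 against 35.3 CPM. Of the 11 endothelial markers tested, 10 had a log2 fold change above 0 and 5 an unadjusted p under 0.05, all higher. Over all genes tested, 20.1% had an unadjusted p under 0.05 in either direction, and 3.00% were called. Of these markers only Emcn was called (edgeR adjusted p = 0.0365). Of the 14, 7 had 0 counts in both mature zone libraries, namely Flt1, Tie1, Emcn, Vwf, Cldn5, Sox17 and Robo4. Col4a1, Col4a2, Nid1 and the endothelial sum had their articular zone libraries in the same order, az replicate 2 highest and az replicate 3 lowest. That order is not particular to them. Lamb1, Lamb2, the myeloid sum and the summed CPM of all 10 members shared it, and Nid2, Lama4, Lama5, Lamc1 and Hspg2 did not. The part of vessels in the zone difference was not tested.

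The 10 pericyte and smooth muscle markers summed to 1037 to 1437 CPM in the articular and to 2221 and 2286 CPM in the mature zone, most of the latter from Cspg4, a proteoglycan gene also known from chondrocytes. Without Cspg4 the sums were 689 to 935 and 410 and 801 CPM, and overlapped, with Acta2 the largest contributor in every library. Of the 10 markers, 7 did not overlap between zones, against 38.7% of all genes tested. Rgs5, Kcnj8, Notch3, Pdgfrb and Myh11 were higher and Cspg4 and Tagln lower in every articular zone library. Rgs5, a pericyte gene, was at 119, 22.3 and 65.7 CPM in az replicates 2, 3 and 4 and at 9.33 and 0.071 CPM in the mature zone (edgeR adjusted p = 0.180). Cspg4 was called lower (log2 fold change -1.90, SE 0.26, edgeR adjusted p = 0.0137) and Pdgfrb, the receptor that marks pericytes and other mesenchymal cells, higher in the articular zone (2.69, SE 0.43, edgeR adjusted p = 0.0195).

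Skeletal muscle markers set the replicate 2 libraries apart in both zones. The 10 markers summed to 1559 CPM in az replicate 2 and 1310 CPM in mz replicate 2, against 23.4 to 71.7 CPM in the other libraries. Without both replicate 2 libraries, Col4a1 (log2 fold change 2.89, edgeR adjusted p = 9.80e-04), Col4a2 (1.43, adjusted p = 0.0243), Nid1 (1.68, adjusted p = 0.0327), Nid2 (-2.12, adjusted p = 5.80e-04) and Hspg2 (-1.45, adjusted p = 0.00217) kept their direction and passed in edgeR, in a fit that takes the lone mature zone library to vary like the articular zone. Schwann cell markers summed to 383 to 667 CPM in the articular and 321 and 354 CPM in the mature zone, nearly all of it Pmp22, which is not particular to Schwann cells; Sox10 and Foxd3 were read in az replicate 2 alone. Adipocyte sums were 123 to 169 and 87.6 and 155 CPM, with Cidec at 0 in every library, and myeloid sums 15.5 to 221 and 25.9 and 43.8 CPM. Epithelial markers were at or near 0, 6 of 7 (Epcam, Cdh1, Krt14, Krt8, Krt18 and Cldn4) with no count in any library. Erythroid sums, nearly all Alas2, were 2.09 to 19.9 and 4.56 and 6.70 CPM, and osteoblast sums 369 to 996 and 665 and 938 CPM, overlapping. Hbb-b1, a globin gene with 0 counts in every library of the count table, was listed in the FPKM table at 26.7, 4.41 and 22.9 in az replicates 2, 3 and 4 and at 3.47 and 2.12 in the mature zone, higher in every articular zone library. The part of these cells in the members' levels was not tested.

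The zone labels were checked with 12 chondrocyte markers. Of these, 11 were called lower in the articular zone and none higher, against 1.85% and 1.14% of all genes tested. The marker not called was Col2a1 (log2 fold change -5.56, SE 1.11, edgeR adjusted p = 0.0896), so even a difference of this size could miss the threshold. The 12 markers summed to 1627 to 2934 CPM in the articular and 22795 and 38547 CPM in the mature zone. Nid2 and Hspg2 were on the side of these markers, and Col4a1, Col4a2 and Nid1 on the other.

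**Figure D4:**
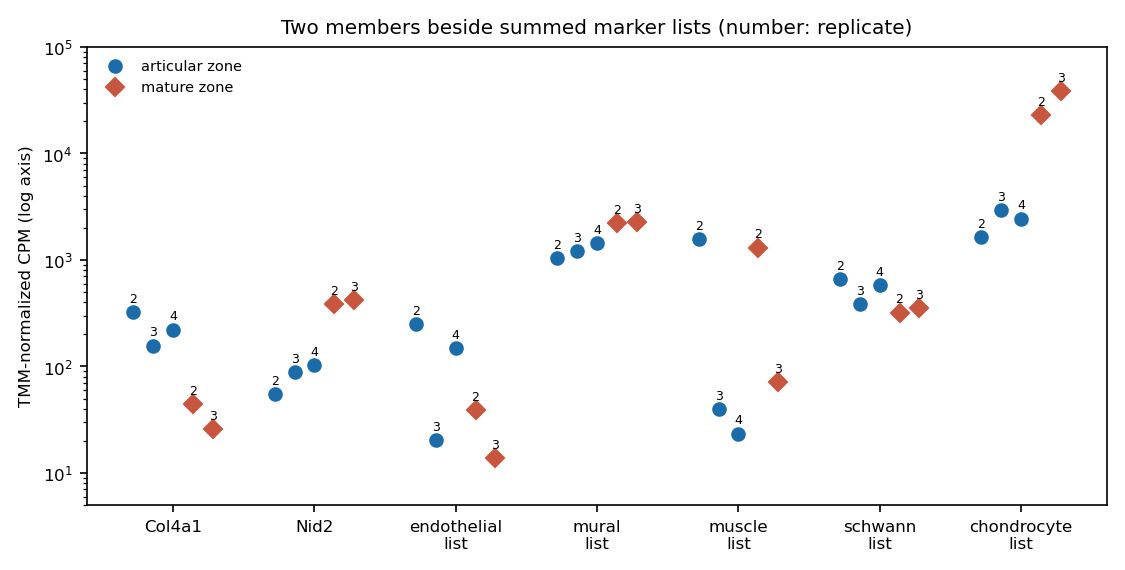
Levels of Col4a1 and Nid2 and summed levels of 5 marker lists in each library, in TMM-normalized CPM on a log axis (blue circles, articular zone; red diamonds, mature zone; numbers give the replicate). Col4a1 is at 157 CPM or more in every articular zone library, the endothelial sum is at 20.3 CPM in az replicate 3, and the muscle sum is 1310 CPM or more only in the replicate 2 libraries.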

How the data were processed

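The authors made single-end TruSeq libraries from poly(A) RNA of captured zones; reads were trimmed with Trimmomatic 0.32 and mapped to mm10 with SHRiMP. The authors deposited whole-number counts of reads for each gene symbol, without normalization; neither the counting tool nor its strand setting is stated. The FPKM table of the authors is scaled to gene model length and library size, with 0.1 as the lowest value. The authors' own table of fold changes and p-values was not used. Total counts were 15449883 to 18884685 per library.

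The test was run in edgeR 4.0.16 (R 4.3.3) on genes reaching 10 counts in 2 or more libraries, with TMM normalization, glmQLFit (robust) and glmQLFTest with the zone alone, 3 residual degrees of freedom, Benjamini-Hochberg adjustment over all 13119 genes tested and a threshold of 0.05. The study used DESeq; DESeq2 1.42.0 was an alternative. The SE is the log2 fold change over the root of the F statistic. CPM uses TMM effective library sizes. The procedure was tested on simulated counts of 12715 genes, of which 200 were changed. It made 89 calls, 7 of them false, so most of the changed genes were missed. The members, lists and tests were chosen with earlier results of these data known. Beside the members, the rule named up to 4 called genes of each list, or the most abundant 2 where none was called, and called markers; Npnt, Agrn, Lama2, Rtraf, further single markers and the other collagen IV chains were named after their values were seen. Alternatives were other normalizations and filters, a block for the replicate number, limma-voom and limma 3.58.1 on log2(FPKM + 1) and log2(FPKM + 0.1), a threshold of 0.01, and each library left out. Ratios were compared by exact permutation of the 5 libraries. Hmcn2 was not in the count table. Tables were made with Python 3.11.15, pandas 2.3.3 and scipy 1.17.1.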

Additional observations from a re-analysis of the deposited data

How the results depend on the processing

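With 3 and 2 libraries the calls depended on each library and on the test, while the directions of the 5 called members held under every alternative run. The number of members called higher, 3, was 5 with DESeq2, and 0 with limma on log2(FPKM + 1) without a filter, with limma on log2(FPKM + 0.1) and at an adjusted p under 0.01; it ranged from 0 to 4 with 1 library left out. The number called lower, 2, was 1 with limma on log2(FPKM + 1) at a mean FPKM of at least 1, and 0 in the same 3 settings; it ranged from 0 to 2 with 1 library left out. Of the other basement membrane genes, 2 were called higher; the number was 4 with DESeq2, 1 with limma on log2(FPKM + 1) at a mean FPKM of at least 1, 0 in the same 3 settings, 8 without both replicate 2 libraries and 0 to 8 with 1 library left out. The sample descriptions number the biological replicates alike in both zones. No label ties a replicate number to a shared litter, batch or day, so the numbers were not used to pair libraries. Skeletal muscle sums were 1559 and 1310 CPM in az and mz replicate 2, against 23.4 to 71.7 CPM in the other libraries. Deviations of same-numbered libraries from their zone mean correlated at 0.14 and 0.13, over 2 pairs. With 2 mature zone libraries these deviations mirror each other, so the 2 values are not separate checks and cannot decide on pairing. A shared preparation was not tested. With the replicate number as a block, 2 members were called higher (Col4a1 and Lamb1), 1 was called lower (Nid2) and 3 other components were called higher; the edgeR adjusted p was 0.0534 for Col4a2, 0.0751 for Nid1 and 0.0773 for Hspg2. Under this block the log2 fold change turned to -0.17 for Lama4 and -0.015 for Itgb1. Lama4 was also at -0.28 without both replicate 2 libraries. With limma-voom the 3 members called higher were Col4a1, Col4a2 and Lamb1, and Nid1 did not pass (limma-voom adjusted p = 0.0633). With 1 library left out, log2 fold changes ranged from -0.20 to 0.38 for Lama4, from -0.33 to 0.50 for Lamb2, from -0.0053 to 1.34 for Lamc1 and from -0.15 to 0.22 for Itgb1, and the log2 ratio of alpha chains to the gamma chain from -1.59 to 0.36. No other ratio changed direction. The causes were not tested. Upper-quartile scaling moved the median of all genes to 0.17, from 0.07. At 0 counts in the mature zone, Lama5 and Frem1 give bounds and no fold change.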
